A study of Mus musculus with 12 samples.

Results

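The cadherin genes of the mouse cochlea were followed from birth (P0) to postnatal day 8 (P8) and from the base of the cochlear duct to its apex. The family was taken by gene symbol as the numbered cadherins (Cdh, without Cdh23), the numbered protocadherins outside the gene clusters (without Pcdh15), Fat1 to Fat4, Dachsous, Celsr1 to Celsr3 and the desmosomal desmocollins (Dsc) and desmogleins (Dsg). By this rule 47 of the 19938 genes with an array entry of their own were members, and 40 of the 47 were among the 16306 genes tested, for which the mean log2 signal of at least 1 group was above 6. Genes with more than 1 entry are given by the entry whose mean over the 12 arrays was highest.

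RNA of wild-type C57BL/6 mice was hybridized to Affymetrix Mouse Gene 1.0 ST arrays, and the sample labels differed in age, region and year. The 6 groups were the base, the middle and the apex at P0 and the same regions at P8, with 2 arrays each, 1 for each of the dissection sets 1 and 2. The labels give an earlier year for set 1 than for set 2 and do not say what it dates. Year and set cannot be told apart. Each age and set was 1 pool of temporal bones from many pups, from which the otic capsule was removed and the lateral wall, the spiral limbus and the organ of Corti were divided into base, middle and apex. The 3 pieces of 1 pool are therefore not independent, and each age is known from 2 pools. In the fit without a block, p-values use the spread between the 2 arrays of a group and treat the pieces of a pool as independent. With the set or the pool fitted as a fixed block, p-values use the spread left after the shift between sets or pools is removed. All of these p-values describe these pools only. In such whole tissue, fewer cells of a type and less RNA per cell cannot be told apart.

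Cadherins are calcium-dependent adhesion proteins of the cell surface. Classical cadherins of type I and type II bind their like on the neighbouring cell and hold the actin cytoskeleton through catenins, whereas desmosomal cadherins hold keratin filaments through plakoglobin and plakophilins. Fat and Dachsous are giant cadherins that bind each other across cell borders and, like the seven-pass Celsr proteins, serve planar cell polarity, by which hair bundles of the organ of Corti take a common orientation.

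All values are the deposited log2 signals, on which a step of 1 is a fold of 2, and levels of different genes are not compared because each gene has its own probes. The median signal of an array lay between 7.21 and 7.29. Of the markers of the expected tissue, 10 of 11 hair cell genes and 10 of 10 supporting cell genes were above 6 on every array, as were 9 of 10 genes of the stria vascularis. Of 8 epidermal markers, 3 (Flg2, Ivl and Krtdap) were under 6 on every array and 4 were above 6 on every array. Skeletal muscle markers stood apart on 1 array, the P0 apex of set 1, where their summed linear signal was 2980 against 1024 to 1494 on the other 11 arrays. Arrays of the same set deviated together in all 15 pairs of groups (correlation across genes of 0.54 to 0.92), so that the set was also fitted as a block.

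The 7 members under the level filter were Cdh7, Cdh12, Dsc3, Dsg1b, Dsg1c, Dsg3 and Dsg4, with signals from 4.27 to 5.85. Of the 7 desmosomal members on the array, Dsc2 and Dsg2 alone were tested. The other groups were nearly complete, with 5 of 5 type I and 11 of 13 type II classical cadherins and 10 of 10 protocadherins. Tested too were 5 of 5 Fat and Dachsous genes, 3 of 3 Celsr genes and 4 of 4 genes listed as cadherins without a classical cytoplasmic tail. These counts cover genes with an entry of their own in the annotation used, and Dchs2, Dsc1 and Dsg1a, which had none, were not analysed here. Signals were above 6 on every array for 34 of the 40 tested members.

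The question of the age comparison was which family members changed over the first postnatal week in the cochlea as a whole. Fat2 rose, and Cdh4, Cdh17 and Fat3 fell. A member was called when the difference of the 3-region means was at least 2-fold with an adjusted p under 0.05 (limma, Benjamini-Hochberg over all 16306 genes). The call went to 1 of 40 members in the higher direction, against 2.06% of all genes, and to 3 of 40 in the lower direction, against 1.14% of all genes. Of these 3, Cdh17 passed the level filter only through its P0 groups, and with a group mean above 7 required it was not tested and 2 members were called lower. By the adjusted p alone, 5 members were higher at P8 (all genes 9.52%) and 13 were lower (all genes 9.19%). With the dissection set as a block these counts were 9 (all genes 19.5%) and 15 (all genes 21.8%). The 6 arrays of P8 lay wholly above those of P0 for 5 members (all genes 8.08%) and wholly below them for 8 (all genes 7.41%). Cdh17 and Cdh9, which passed the level filter only through P0 groups, are among the 13 and the 15, and Cdh17 is among the 8. The median difference over the 40 members was -0.02 and over all tested genes -0.00. When the 3 regions were averaged within each pool and 2 pools were set against 2, no member passed, and of all genes 5 passed in the higher and 0 in the lower direction. With the pool as a random block, Fat2, Cdh4, Cdh17 and Fat3 were again the 4 members called.

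**Figure D1:**
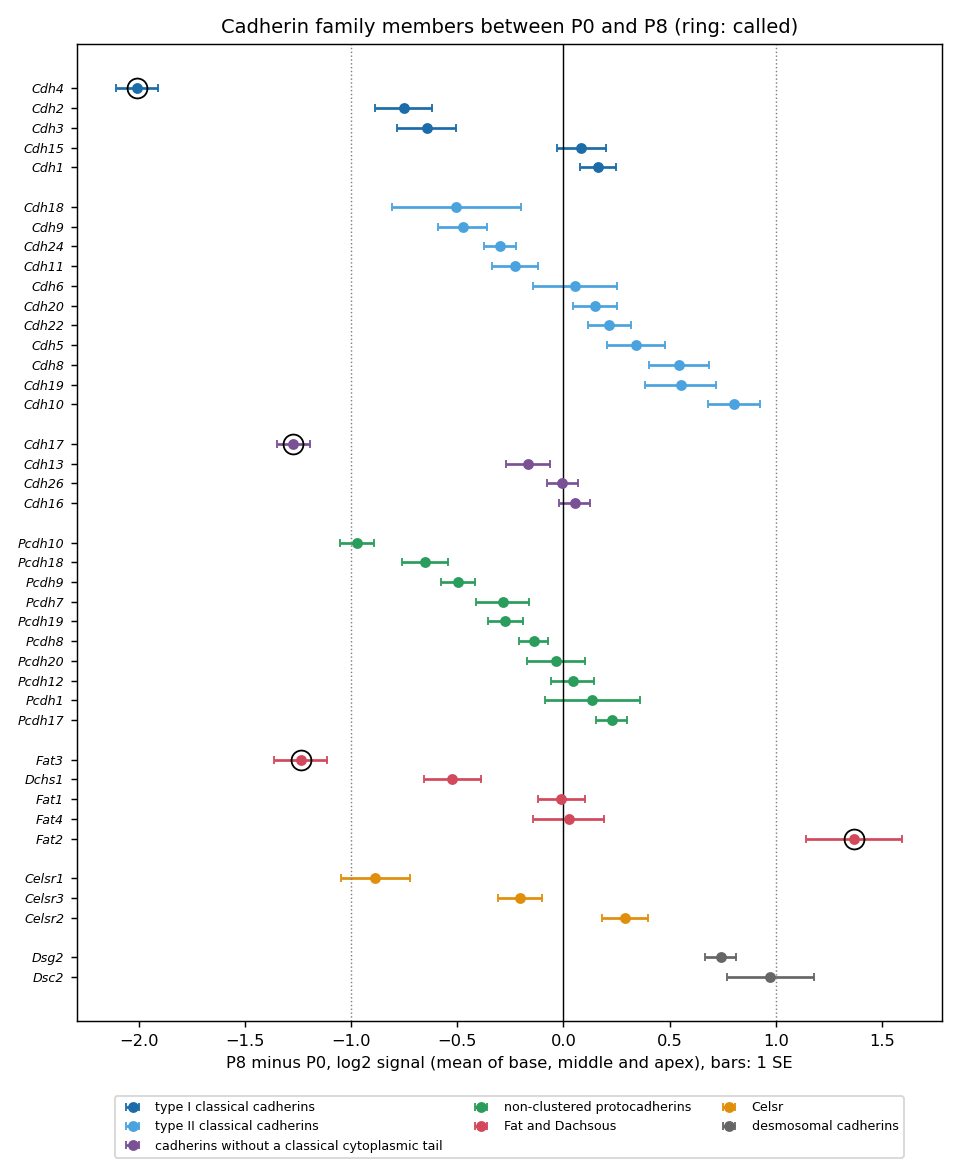
Difference in log2 signal between P8 and P0 for the 40 tested members, grouped by kind, with bars of 1 SE from the fit across all genes and dotted lines at a fold of 2. The 4 ringed members are those called, Cdh4 at -2.01, Cdh17 at -1.27, Fat3 at -1.24 and Fat2 at 1.37.

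Cdh4, also named R-cadherin, is a type I classical cadherin known from retina, brain and kidney. At P0 its signals in sets 1 and 2 were 9.15 and 9.48 (base), 9.72 and 9.92 (middle) and 9.99 and 10.21 (apex). At P8 they were 7.64 and 7.59 (base), 7.66 and 7.53 (middle) and 7.85 and 8.14 (apex). Every P8 array lay at least 1 log2 step below every P0 array. The difference was -2.01 ± 0.10 (SE, n = 6 arrays from 2 pools per age), a 4.02-fold fall with an adjusted p = 7.5e-06, the largest difference of any tested member. It was -1.70 for the base, -2.22 for the middle and -2.10 for the apex.

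Cdh2 (N-cadherin) and Cdh3 (P-cadherin) were lower at P8 by the adjusted p without reaching a fold of 2. Cdh2, the cadherin of neurons and mesenchyme, lay at 9.62 to 10.27 at P0 and at 9.09 to 9.38 at P8, with no overlap and a difference of -0.75 ± 0.14 (adjusted p = 0.0052). Cdh3, found in many epithelia, lay at 8.64 to 9.51 at P0 and at 8.19 to 8.70 at P8, where the ages overlapped, with a difference of -0.65 ± 0.14 (adjusted p = 0.012). Cdh1 (E-cadherin), the main epithelial cadherin, lay between 10.85 and 11.42 at P0 and between 11.24 and 11.40 at P8. Its arrays overlapped, and the difference of 0.16 ± 0.08 did not pass (adjusted p = 0.23). Cdh15 (M-cadherin), a cadherin of muscle, differed by 0.08 ± 0.11. The type I group thus held 3 of 5 members lower by the adjusted p (all genes 9.19%), and its median difference was -0.65.

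Type II classical cadherins went both ways, with differences from -0.50 to 0.80 and a median of 0.15, and none was called. Cdh10, a cadherin of the brain, was at 6.59 to 7.29 at P0 and at 7.67 to 8.17 at P8. The ages did not overlap, and the difference was 0.80 ± 0.12 (adjusted p = 0.0023). Cdh8, which marks sets of neurons and their targets, also had ages apart, at 6.52 to 7.05 and 7.24 to 7.98, with a difference of 0.54 ± 0.14 (adjusted p = 0.029). Every P8 array of Cdh24 was below every P0 array (difference -0.30 ± 0.07, adjusted p = 0.023). The other entry of Cdh24 had the opposite sign (0.08), with overlapping ages. Cdh9 passed in the same direction (-0.47 ± 0.12, adjusted p = 0.022) with every P8 signal under 6, where no level is read. Cdh5 (VE-cadherin), the cadherin of endothelium, differed by 0.34 ± 0.14 and passed only with the dissection set as a block (adjusted p = 0.12 without and 0.022 with it). Cdh19 (0.55 ± 0.17, adjusted p = 0.052) and Cdh18 (-0.50 ± 0.30, adjusted p = 0.30) likewise passed the adjusted p only with the block, at adjusted p = 0.0030 and 0.00029.

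Among the cadherins without a classical tail, Cdh17 (LI-cadherin), which is known from liver and intestine and binds no catenin, was called lower. Its signals at P0 were 6.42 and 6.46 (base), 6.70 and 6.51 (middle) and 6.71 and 6.57 (apex). At P8 they were 5.24 and 5.17, 5.11 and 5.32, and 5.43 and 5.49 in the same order. The ages lay far apart, but every P8 signal was under 6 and every P0 signal less than 1 step above it. The difference of measured signals was -1.27 ± 0.08 (adjusted p = 1.9e-05), at a level where the size of a fold is not read. Cdh13 (T-cadherin), which is anchored by a lipid, differed by -0.17 ± 0.10 and Cdh16 and Cdh26 by 0.05 and -0.01, none of which passed. Cdh26 was put in this group by the list used, and its cytoplasmic tail was not examined.

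Of the 10 protocadherins, which bind weakly and serve mainly in the nervous system, 7 had differences below 0 (8189 of all 16306 genes). By the adjusted p 4 were lower (all genes 9.19%), and none was called. Pcdh10 (OL-protocadherin) was at 7.37 and 7.18 (base), 7.68 and 7.76 (middle) and 7.66 and 7.83 (apex) at P0. At P8 it was at 6.41 and 6.54, 6.58 and 6.64, and 6.66 and 6.82. The ages did not overlap, and the difference of -0.97 ± 0.08 (adjusted p = 8.3e-05) was just short of a fold of 2. Pcdh18 (10.22 to 10.34 at P0, 9.19 to 10.05 at P8) differed by -0.65 ± 0.11 (adjusted p = 0.0034) and Pcdh9 by -0.50 ± 0.08 (adjusted p = 0.0028), both without overlap. Pcdh19, a gene of the X chromosome, overlapped between the ages with a difference of -0.27 ± 0.08 (adjusted p = 0.048). Pcdh17 (0.23 ± 0.07, adjusted p = 0.062) and Pcdh7 (-0.29 ± 0.13, adjusted p = 0.16) passed only with the set as a block (adjusted p = 0.019 and 0.011), and Pcdh20 differed by -0.04 ± 0.14.

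RefSeq promoter sequences were found for 26 of the 47 members, and 6 windows lay wholly before the annotated gene, 4 of them of protocadherins. Below are the 250 bases before the start of Pcdh10 (lower at P8 by the adjusted p, at just under a fold of 2), Pcdh17 (called higher in the P8 apex with the set as a block) and Pcdh20 (passing in neither comparison), shown because they come from 1 subgroup with unlike signals. They are read 5′ to 3′ on the gene's strand in GRCm38.p6, with each CpG (C followed by G, the same on both strands) in capitals.
Pcdh10, chr3:45378148-45378397 (+): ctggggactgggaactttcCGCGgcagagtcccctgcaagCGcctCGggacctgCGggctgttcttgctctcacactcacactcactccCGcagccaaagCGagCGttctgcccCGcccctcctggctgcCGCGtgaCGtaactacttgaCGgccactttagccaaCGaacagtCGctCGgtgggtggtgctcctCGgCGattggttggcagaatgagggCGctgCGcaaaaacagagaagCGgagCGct
Pcdh17, chr14:84443313-84443562 (+): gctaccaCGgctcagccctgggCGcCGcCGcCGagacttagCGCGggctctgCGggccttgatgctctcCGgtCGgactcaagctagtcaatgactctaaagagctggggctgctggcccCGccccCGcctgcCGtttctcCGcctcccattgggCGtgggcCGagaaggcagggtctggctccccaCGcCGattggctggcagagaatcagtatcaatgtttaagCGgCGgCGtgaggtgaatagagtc
Pcdh20, chr14:88471397-88471646 (-): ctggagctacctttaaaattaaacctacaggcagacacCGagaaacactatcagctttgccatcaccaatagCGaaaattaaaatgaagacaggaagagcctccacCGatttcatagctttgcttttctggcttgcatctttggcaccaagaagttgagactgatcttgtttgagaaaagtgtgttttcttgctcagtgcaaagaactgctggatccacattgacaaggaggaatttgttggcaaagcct
Pcdh10 held 22 CpG and Pcdh17 21, counts that 14.8% and 16.3% of all 32851 promoter windows of this length reach or exceed. Pcdh20 held 3, and 37.8% of windows have 3 or fewer. Pcdh8, the remaining protocadherin window, is not printed and held 11, a count that 35.6% reach or exceed. At least 1 CpG is found in 92.1% of the windows. The letters CAGGTG or CACCTG (1 the reverse complement of the other), the E-box forms bound by Snail and Zeb repressors of cadherin genes, were in 0 of the 6 member windows and in 17.2% of all windows. The 6 were kept for lying before the gene, and 23 other member windows that overlapped it were left out. All windows were not selected in this way, so these shares compare unlike sets.

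In the Fat and Dachsous group 2 members were called, in opposite directions. Fat2, known from cerebellar granule cells and from the migration of epithelial cells, was at 7.73 and 8.68 (base), 7.57 and 8.65 (middle) and 6.81 and 7.36 (apex) at P0. At P8 it was at 9.08 and 9.45, 9.25 and 9.28, and 8.96 and 8.99. All P8 arrays were above all P0 arrays, and the spread between sets was wide at P0 and narrow at P8. The difference was 1.37 ± 0.23, a 2.58-fold rise (adjusted p = 0.0035), with 1.73 in set 1 and 1.01 in set 2. By region it was 1.06 for the base, 1.16 for the middle and 1.89 for the apex.

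Fat3, which shapes the dendrites of retinal amacrine cells, was at 8.15 and 8.75 (base), 8.85 and 9.19 (middle) and 9.42 and 9.74 (apex) at P0. At P8 it was at 7.62 and 7.77, 7.74 and 7.78, and 7.87 and 7.91. The ages did not overlap. The difference was -1.24 ± 0.12, a 2.36-fold fall (adjusted p = 0.00025), and was -0.76 for the base, -1.26 for the middle and -1.69 for the apex. Fat3 has 15 entries on the array, and all 15 were lower at P8, by -0.45 to -1.26 with a median of -0.82. The mean of the 15 entries differed by -0.82, which is short of a fold of 2.

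Fat1 and Fat4, the broadly expressed members, gave differences of -0.01 ± 0.11 and 0.02 ± 0.17, neither of which passed. Dchs1, a partner that Fat4 binds, was at 9.28 to 9.74 at P0 and 8.74 to 9.37 at P8, with overlap, and was lower by the adjusted p (-0.52 ± 0.13, adjusted p = 0.027).

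Celsr1, which organizes planar polarity in skin and inner ear, was lower at P8 by the adjusted p alone. Its P0 signals were 8.87 and 9.48 (base), 9.38 and 9.87 (middle) and 9.58 and 9.98 (apex). At P8 they were 8.21 and 8.54, 8.44 and 8.69, and 8.74 and 9.22, so the P8 apex reached into the range of the P0 base. Within each region all P8 arrays were below those of P0, and the difference was -0.89 ± 0.16 (adjusted p = 0.0058). Celsr2 and Celsr3, which guide axons and the beat of cilia, differed by 0.29 ± 0.11 (adjusted p = 0.10) and -0.21 ± 0.10 (adjusted p = 0.21), and Celsr2 passed with the set as a block (adjusted p = 0.0072).

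Both tested desmosomal cadherins were higher at P8 by the adjusted p (all genes 9.52%), without reaching a fold of 2. Dsc2 was at 6.43 and 6.45 (base), 6.54 and 6.47 (middle) and 6.54 and 6.36 (apex) at P0. At P8 it was at 7.69 and 7.13, 8.03 and 7.05, and 7.77 and 6.95, with set 1 above set 2 in every region. The ages did not overlap, and the difference was 0.97 ± 0.20 (adjusted p = 0.011). Dsg2, the desmoglein of simple epithelia and heart, was at 7.51 to 7.75 at P0 and 8.29 to 8.45 at P8, again without overlap, with a difference of 0.74 ± 0.07 (adjusted p = 0.00025).

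Several cell type lists moved with age. All 8 markers of cycling cells were called lower at P8, and their summed linear signal was 2374 to 3418 at P0 and 962 to 1220 at P8. Of 9 neuronal markers 4 were called lower, with sums of 3199 to 4453 at P0 and 1022 to 1911 at P8. The sums of stria vascularis genes (5 of 10 called higher) were 7961 to 12594 at P0 and 16910 to 24252 at P8, those of bone genes (7 of 7 called higher) 741 to 1030 and 3178 to 8236, and those of myelin genes (3 of 7 called higher) 3172 to 4396 and 5685 to 9953. Over all tested genes, 2.06% were called higher and 1.14% lower. No marker of these 5 lists was under 6 on every array. Their part in the differences of Cdh4, Fat3, Fat2 and the other members was not tested.

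**Figure D2:**
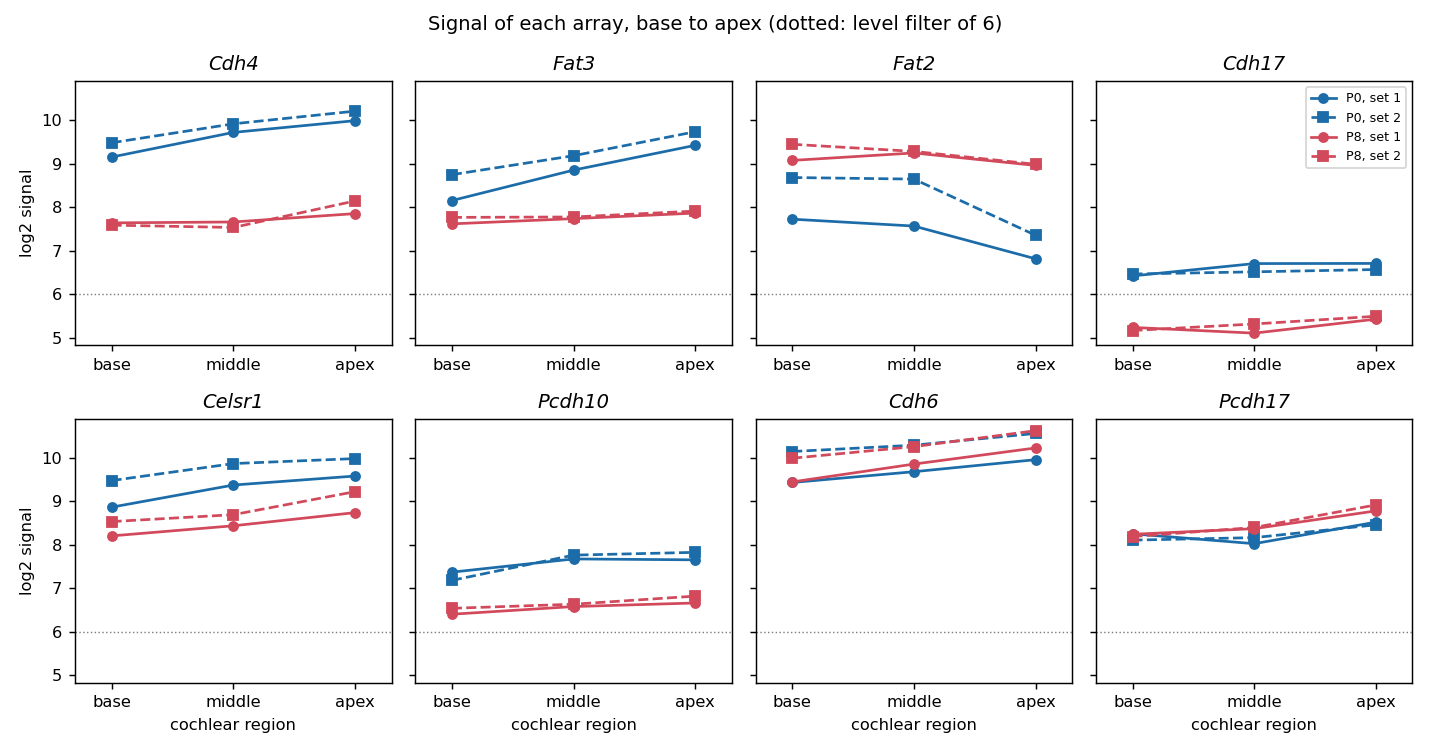
Log2 signal of each of the 12 arrays for 8 members, from base through middle to apex, with P0 in blue, P8 in red, set 1 as circles with full lines and set 2 as squares with broken lines. Cdh4 and Fat3 rose toward the apex at P0 and were low at P8, Fat2 fell toward the apex at P0 and was high at P8, and Cdh17 lay under 6 (dotted line) at P8.

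The comparison of apex with base asks which members differ along the tonotopic axis. At P0 the largest differences were those of Fat3 and Cdh4, higher in the apex, and of Fat2, higher in the base. A call took a fold of at least 1.5 with an adjusted p under 0.05. Without a block 0 of 40 members were called, and 3 (Cdh4, Fat2 and Fat3) had an unadjusted p under 0.05 with that fold, as did 1.15% of all genes. By the adjusted p, 0.00613% of all genes were called higher in the apex and 0% higher in the base. With the dissection set as a block, Fat3 and Cdh4 were called higher in the apex (2 of 40, against 0.405% of all genes) and 0 members higher in the base (all genes 0.27%). The median over the 40 members was 0.07, beside 0.03 over all tested genes.

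Fat3, with the P0 signals given above, was higher in the apex than in the base by 1.27 in set 1 and 0.99 in set 2, with the middle between them in both. The difference was 1.13 ± 0.21 (SE, n = 2 arrays per region), a fold of 2.19, with an adjusted p = 0.33 without a block and 0.0097 with the dissection set as a block. All 15 entries of the gene were higher in the apex, by 0.30 to 1.22 with a median of 0.73. Both apex arrays exceeded both base arrays.

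Cdh4 was higher in the apex by 0.84 and 0.73 in the sets, again with the middle between. The difference was 0.78 ± 0.17, a fold of 1.72, with an adjusted p = 0.43 without and 0.033 with the block. When each of the 12 arrays was left out in turn, the blocked call of Fat3 was lost without the P0 base of set 1 or either P0 apex array (adjusted p = 0.084, 0.074 and 0.056). That of Cdh4 was lost without any 1 of the 6 P0 arrays or the 2 arrays of the P8 base (adjusted p = 0.059 to 0.29).

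Fat2 ran the other way, lower in the apex by 0.91 in set 1 and 1.33 in set 2, with middle signals close to those of the base. The difference was -1.12 ± 0.39, a fold of 2.17. It was not called without a block (adjusted p = 0.9999) or with the dissection set as a block (adjusted p = 0.077), and passed with the 4 pools as the block (adjusted p = 0.00095). Celsr1 was higher in the apex by 0.72 and 0.51 (difference 0.61 ± 0.28, adjusted p = 0.9999 without and 0.051 with the block, and 0.0095 with pools as the block). Cdh18, the fifth in size, differed by 0.53 ± 0.52, with 0.76 and 0.29 in the sets (adjusted p = 0.9999 without and 0.13 with the block).

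The remaining members had smaller differences at P0. They lay between -0.29 and 0.49 for the remaining type I cadherins, with -0.29 for Cdh1, and between -0.30 and 0.47 for the remaining type II cadherins, with 0.05 for Cdh5. They lay between -0.01 and 0.20 for the cadherins without a classical tail, with 0.11 for Cdh13, between -0.11 and 0.46 for protocadherins, with 0.13 for Pcdh7, and at 0.01 and -0.03 for Dsc2 and Dsg2. Fat1 gave 0.27, Fat4 -0.47 and Dchs1 0.09, and Celsr2 and Celsr3 gave 0.07 and 0.06. Signals rose from base through middle to apex in both pools for 10 members (all genes 9.14%) and fell in both for 1 member, Fat2 (all genes 4.1%).

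At P8 the largest differences were those of Cdh6, Pcdh17 and Celsr1, all higher in the apex. Without a block 0 of 40 members were called, and 1 (Pcdh17) had an unadjusted p under 0.05 with a fold of 1.5, near the share of all genes (1.95%). By the adjusted p, 0.178% of all genes were called higher in the apex and 0.0184% higher in the base. With the block, Cdh6, Pcdh17 and Celsr1 were called higher in the apex (3 of 40, all genes 1.13%) and 0 members higher in the base (all genes 0.442%). The median was 0.03 over the members and 0.00 over all tested genes.

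Cdh6 (K-cadherin), a type II cadherin of kidney and brain, was at 9.45 and 9.99 (base), 9.86 and 10.26 (middle) and 10.23 and 10.63 (apex) at P8. The lower apex array was above the higher base array, and both sets rose in the same order. The difference was 0.71 ± 0.34, with 0.78 and 0.63 in the sets and an adjusted p = 0.9999 without and 0.013 with the block. At P0 the apex was higher by 0.47 ± 0.34 (adjusted p = 0.9999 without and 0.15 with the block).

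Pcdh17 was at 8.24 and 8.19 (base), 8.37 and 8.40 (middle) and 8.78 and 8.92 (apex) at P8, with the regions apart. The difference was 0.63 ± 0.13, a fold of 1.55, with an adjusted p = 0.17 without and 0.021 with the block. Celsr1 was higher in the apex by 0.54 and 0.69 in the sets, a difference of 0.61 ± 0.28 with an adjusted p = 0.9999 without and 0.027 with the block, which was nearly the same size as at P0. These 3 calls were lost when any 1 of the 4 arrays of the P8 base or apex was left out (adjusted p = 0.053 to 0.16 for Cdh6, 0.15 to 0.24 for Celsr1 and 0.079 to 0.19 for Pcdh17), and that of Celsr1 also without either array of the P0 middle (adjusted p = 0.054).

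Fat4 and Pcdh18 were the members with the largest differences toward the base at P8. Fat4 was at 10.31 and 10.60 in the base and 9.97 and 9.77 in the apex, a difference of -0.58 ± 0.29 (adjusted p = 0.9999 without and 0.33 with the block). Pcdh18 was at 10.05 and 9.65 in the base and 9.54 and 9.19 in the apex, a difference of -0.48 ± 0.19 (adjusted p = 0.99 without and 0.16 with the block). In both genes the apex was lower within each set, and neither was called. With the 4 pools as the block the adjusted p was 0.041 for Fat4 and 0.018 for Pcdh18. Their folds of 1.499 and 1.398 were under the 1.5 required. Signals rose from base to apex in both pools for 9 members (all genes 7.73%) and fell for 2, Pcdh18 and Pcdh9 (all genes 9.55%).

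**Figure D3:**
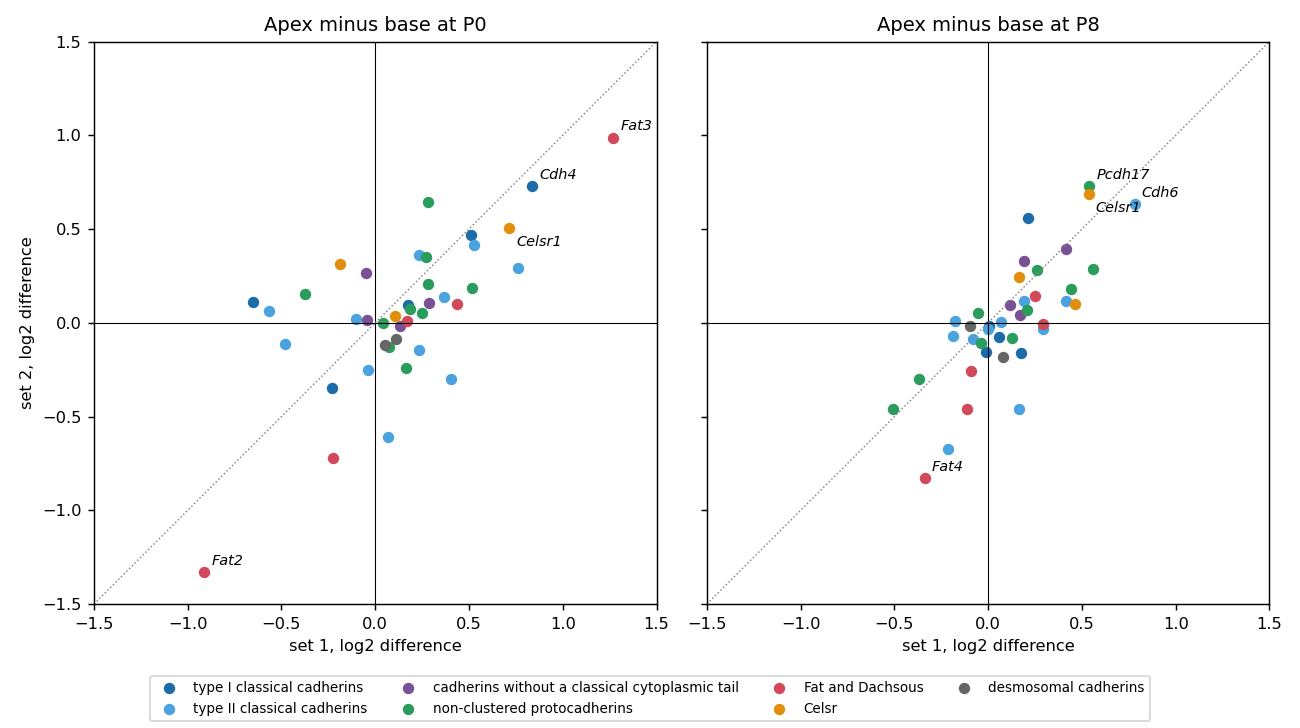
Apex minus base in log2 signal for the 40 tested members, in set 1 (horizontal) and set 2 (vertical), at P0 and at P8, with the dotted line marking equal differences. Fat3 (1.27 and 0.99), Cdh4 (0.84 and 0.73), Celsr1 (0.72 and 0.51) and Fat2 (-0.91 and -1.33) stand away from the centre at P0. At P8 Cdh6, Pcdh17 and Celsr1 do so toward the apex and Fat4 (-0.34 and -0.83) toward the base.

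The differences of the sets had the same sign for 24 of 40 members at P0, where 51.6% of all genes did so, and for 29 of 40 at P8, against 63.5% of all genes. Marker lists also moved along the axis. Of all 16306 genes, 9325 were higher and 6981 lower in the apex at P0, and 8247 and 8059 at P8. At P0, 9 of 10 supporting cell genes were higher in the apex (sums of 11459 to 12475 in the base, 14523 to 14813 in the apex). All 8 cycling genes (2374 to 2991 and 3324 to 3418) and 8 of 9 neuronal genes (3199 to 3810 and 4278 to 4453) were higher there too, and 9 of 10 stria vascularis genes were lower (9794 to 12216 and 7961 to 8758). Muscle genes were higher in the apex by a median of 0.91 in set 1 and 0.08 in set 2. In the same order Fat3 had differences of 1.27 and 0.99, and Cdh4 of 0.84 and 0.73. At P8, 9 of 10 supporting cell genes (8557 to 8704 and 11733 to 13813) and all 11 hair cell genes (3008 to 3224 and 4265 to 4514) were higher in the apex, and all 7 bone genes (8006 to 8236 and 3178 to 5670) and all 10 stria vascularis genes (20211 to 24252 and 16910 to 18837) were lower. Of 9 neuronal genes 8 were higher in the P8 apex by the mean of the sets, with sums that overlapped (1022 to 1850 and 1542 to 1837). The neuronal median differed between the sets, at -0.16 in set 1 and 0.87 in set 2. At P0 it was 0.03 and 0.34. No gene of these lists was under 6 on every array. The part of these lists in the apex-base differences of the members was not tested.

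Whether a gradient altered with age was read from the apex-base difference at P8 minus that at P0, with no fold required. Fat3 had the largest change, from 1.13 at P0 to 0.20 at P8, and Fat2 the next, from -1.12 to -0.29. No member was called without a block (all genes 0% toward the apex and 0% toward the base) or with the dissection set as a block. By an unadjusted p under 0.05, 1 member (Fat3) and 2.04% of all genes passed without a block. With the 4 pools as the block, Fat3 passed alone among members, among 0.337% of all genes whose difference moved toward the base (0.589% moved toward the apex). Its change was -0.93, with -1.02 in set 1 and -0.84 in set 2, and an adjusted p = 1 without a block, 0.17 with the set and 0.012 with the pools as the block. Fat2 changed by 0.83 (adjusted p = 1, 0.71 and 0.079 in the same order). Cdh18 (-0.54), Cdh19 (-0.50) and Cdh3 (-0.48) followed in size and did not pass in any of the 3 fits.

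**Figure D4:**
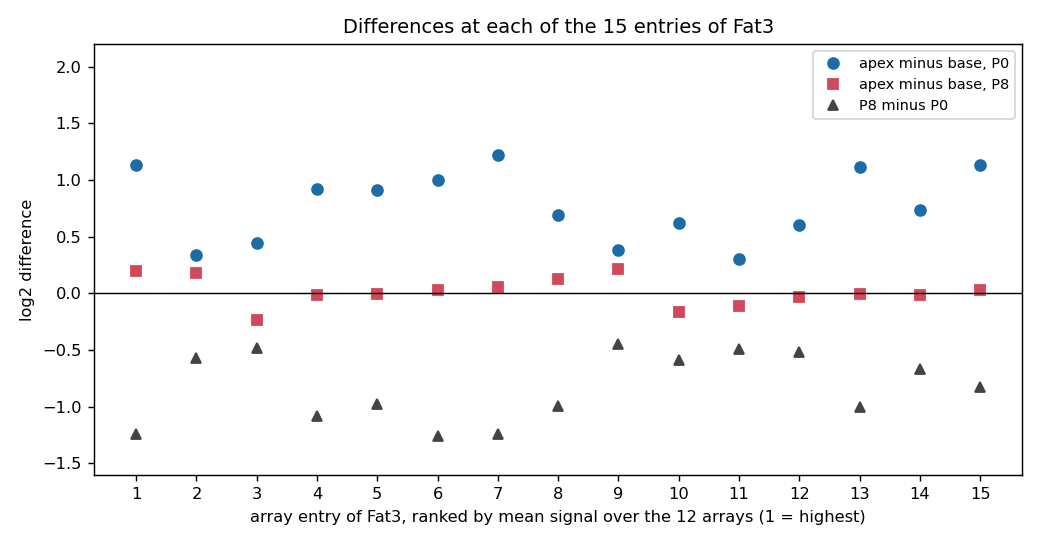
Log2 differences at each of the 15 array entries of Fat3, ranked by mean signal, for apex minus base at P0 (circles), apex minus base at P8 (squares) and P8 minus P0 (triangles). The P0 apex-base differences are all above 0, the age differences are all below 0, and the P8 apex-base differences lie between -0.24 and 0.21, 7 above and 8 below 0.

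Partner genes were read from 4 lists. Of 20 genes of catenins and the adherens junction plaque none was called with age (median 0.12). By the adjusted p alone 2 were higher (all genes 9.52%) and 3 lower (all genes 9.19%) at P8. Ctnnb1 (beta-catenin), which joins classical cadherins to alpha-catenin, differed by -0.10 ± 0.12. Ctnna1 (alpha-catenin), which binds actin, differed by 0.22 ± 0.25, Ctnnd1 (p120-catenin), which keeps cadherins at the membrane, by 0.31 ± 0.14, and Jup (plakoglobin) by 0.42 ± 0.15. None of these 4 passed without a block, and Ctnnd1 and Jup passed the adjusted p with the set as a block (adjusted p = 0.036 and 0.00030).

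Of the 8 desmosome plaque genes Pkp1 (plakophilin 1), which strengthens desmosomes, had the largest differences with age and between apex and base at P0, but not at P8. It was at 8.49 and 8.86 (base), 8.00 and 8.44 (middle) and 7.24 and 7.71 (apex) at P0, and at 9.30 and 9.29, 9.13 and 9.15, and 8.74 and 8.86 at P8. Both regions and ages were ordered alike in the 2 sets. Pkp1 was the single partner gene called along the axis, lower in the P0 apex by 1.25 and 1.15 in the sets (difference -1.20 ± 0.21, adjusted p = 0.30 without and 0.0076 with the block). Its age difference of 0.96 ± 0.12 (adjusted p = 0.00087) was short of a fold of 2.

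Of 17 planar cell polarity and Fat-Dachsous partners, 14 had age differences below 0 (8189 of all 16306 genes). Their median was -0.25, and none was called. Fjx1, the kinase that modifies Fat and Dachsous, was at 8.44 to 9.12 at P0 and 7.56 to 8.00 at P8, without overlap (difference -0.93 ± 0.16, adjusted p = 0.0036). Prickle2, Dvl2 and Scrib were also lower by the adjusted p, at -0.42 ± 0.08, -0.34 ± 0.10 and -0.31 ± 0.09. With Fjx1 this made 4 of 17 lower (all genes 9.19%). Of the 7 genes that direct cadherin transcription or cleavage, none was called or passed the adjusted p with age without a block, and their median was 0.13. Snai2 (0.30 ± 0.28) and Twist1 (-0.54 ± 0.21), both repressors of Cdh1, did not pass without a block (adjusted p = 0.51 and 0.11). With the set as a block they passed (SE 0.085 and 0.12, adjusted p = 0.015 and 0.0050). Across the lists of 20, 8, 17 and 7 partner genes, 6, 4, 2 and 1 were then higher at P8 by the adjusted p (all genes 19.5%). In the same order 7, 2, 10 and 1 were lower (all genes 21.8%).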

How the data were processed

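The authors hybridized 12 arrays, scanned them, and estimated expression by robust multiarray averaging (RMA, version not given in the sources used here). The deposited values are these log2 signals. Whether 1 RMA run covered both sets is not given in the sources used here. Of 35556 entries, 21789 carried 1 gene symbol by the platform annotation and were used, while 1621 had several and 12146 none. The members and gene lists were chosen with earlier results of these data known.

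The test was that of limma 3.58.1 (R 4.3.3), in 1 fit of 6 group means without a block, since the methods name an unpaired test (6 residual and 2.78 prior degrees of freedom). Calls required a Benjamini-Hochberg adjusted p under 0.05 over 16306 genes and a fold of 1.5 (apex and base) or 2 (ages). The dissection set pairs the arrays, because each set repeated the dissection and every pair of groups had a correlation of deviations above 0.1 (0.54 to 0.92). Values with the set as a replicate block stand beside a result where they change the call. SEs after ± are those of the fit without a block. Full statistics are given for members called in either fit and the 5 largest differences per contrast. Other members were named after their values were seen. The fit without a block was tested on simulated arrays drawn independently of each other. That test does not cover the fits with a block or arrays that deviate together. Alternatives were other blocks, scalings, filters, entries and variance priors, the methods' t-test, and leaving out each array. The number of arrays limits the precision. Python 3.11.15, pandas 2.3.3, numpy 2.4.6 and matplotlib 3.10.9 made tables and figures.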

Additional observations from a re-analysis of the deposited data

Results flagged for a closer look

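The apex-base difference of Fat3 was flagged because its change between the ages passed, though only with the pools as a block. The difference changed by -0.93 from P0 to P8, and this change was tested as an interaction of region and age. It passed with the 4 pools as a block (adjusted p = 0.012, SE 0.16) and did not pass without a block (adjusted p = 1) or with the dissection set as a block (adjusted p = 0.17).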

How the results depend on the processing

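With 2 arrays per group and 2 pools per age, the calls along the axis rest on the block. At P0, apex against base gave 2 members when the set entered as a replicate block, 4 with the pool as a random block and 4 with the pool as a fixed block (Cdh4, Celsr1, Fat2 and Fat3 in both), against 0 without a block. At P8 the counts were 3, 3 and 3 (Cdh6, Celsr1 and Pcdh17 each time) against 0, and the methods' t-test gave 1 (Pcdh17) at the unadjusted p and 0 after Benjamini-Hochberg. With any 1 array left out both counts stayed at 0 to 0 without the block. With the block they ranged from 0 to 2 at P0 and from 0 to 3 at P8, an alternative chosen after seeing the data. The change of the difference gave 1 member (Fat3) with the pool as a random or a fixed block and 0 otherwise. Members higher at P8 were 2 with median-centred arrays (Dsc2 and Fat2), 5 without a fold threshold and 0 with regions averaged within pools. With 1 array left out they were 1 to 2, Dsc2 joining when the P0 apex of set 1 or any P8 array of set 2 was left out. Members lower at P8 were 13 without a fold threshold, 0 with regions averaged within pools, and 3 to 4 with 1 array left out, where Pcdh10 joined. Regions averaged within pools gave adjusted p = 0.060 for Cdh4, 0.076 for Cdh17, 0.11 for Fat3 and 0.19 for Fat2. The replicate block changed no age call at a fold of 2. None of the 9 called differences recomputed under each alternative (P8 against P0 for Cdh4, Cdh17, Fat2 and Fat3, apex against base at P0 for Cdh4 and Fat3 and at P8 for Cdh6, Celsr1 and Pcdh17) reversed. The other named differences were not recomputed under all of them. Cdh17 could not be tested with a group mean above 7.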
